A study of Aspergillus nidulans with 6 samples.

Results

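The table deposited for Aspergillus nidulans held 1375 genes whose transcripts differed between a celAΔ strain and its control. Of these, 73 were dehydrogenases, reductases and oxidases mostly outside the central carbon, redox-defence and secondary metabolite pathways. They were found by the words of their annotation, so 6-phosphogluconate dehydrogenase (ANIA_10233), of the pentose phosphate pathway, remained among them. 94 genes carried one of the words dehydrogenase, reductase, oxidase or oxidoreductase. Of these, 18 were set aside because another word placed them elsewhere (for example CoA, malate, glutathione, P450 or sterigmatocystin). A further 3 were set aside because they lay in ranges of loci assigned to other gene sets. The 73 genes were divided by role into 9 groups, from the breakdown of branched-chain amino acids to oxidoreductases with no stated substrate.

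The study addressed what the loss of celA (ANIA_08444), which encodes a putative mixed linkage glucan synthase of the cell wall, does to the transcriptome of the mycelium. RNA was sequenced from SAA.111, the control, and from celAΔ in 3 cultures each, given as biological replicates, all grown in liquid minimal medium with glucose and ammonium tartrate at 37 °C for 3 days. SAA.111 carries the alleles riboB2, pyroA4, biA1, wA3 and veA1 and a deletion of argB made with trpC. In celAΔ, made in the same background, the argB marker took the place of the whole celA locus, so that celAΔ differs from its control both by the absence of celA and by a working argB, the gene of ornithine carbamoyltransferase in arginine synthesis, and the effects of these changes cannot be told apart. The sample labels call the strain both a deletion and a downregulation of celA. All 3 celAΔ cultures are of 1 strain and do not stand for independent deletions.

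Dehydrogenases and oxidoreductases move electrons between metabolites and the carriers NAD(H), NADP(H) and flavins. Oxidases pass the electrons to oxygen and often form hydrogen peroxide, and reductases spend NAD(P)H to reduce aldehydes, ketones, quinones, metal ions or oxidised nitrogen. In filamentous fungi these enzymes release carbon and nitrogen from amino acids and amines, detoxify aldehydes, make and remobilise mannitol, and build fatty acids and ergosterol.

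The deposited table held only genes that its authors had already selected: the highest of its p-values was 0.0499 and the smallest fold was 2.00, with 642 genes higher and 733 lower in celAΔ. The tests below therefore grade genes that were chosen on the same 6 libraries and are not an independent sign that they changed. Mapped reads numbered 3300251 to 3706233 in the control libraries and 4176645 to 5205011 in the celAΔ libraries, of which 22399 to 36771 reads a library fell on the 73 genes. In the gene that was targeted, 198, 197 and 111 reads were counted in the control and 33, 38 and 36 in celAΔ, a log2 fold change of −2.64 ± 0.35 (SE, edgeR, Benjamini-Hochberg adjusted p = 0.00156), so that some celA reads remained in the deleted strain. The marker argB had 4, 4 and 2 reads in the control, against 8150, 15329 and 11624 in celAΔ. Control replicate 3 stood apart from the other control libraries: the summed level of 4 conidiation genes (ANIA_05086, ANIA_10628, ANIA_05015 and flbD, all 4 listed) was 41.0, 40.7 and 1247 RPKM (reads scaled to gene length and to the mapped total of the library) in control replicates 1, 2 and 3 and 1623, 2517 and 3389 RPKM in the celAΔ replicates. All of these genes were nearest to celAΔ in control replicate 3, and only ANIA_05086 passed the test. A change in the share of conidiating cells and a change of RNA per cell cannot be told apart in these bulk samples.

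Most of the 73 genes were lower in celAΔ: 49 had a lower and 24 a higher mean. With an adjusted p below 0.05 and more than 1 on the log2 scale as the threshold (edgeR, Benjamini-Hochberg over the listed genes), 68 of the 73 genes (93.2%) passed, against 93.6% of all listed genes, so the number passing did not set these enzymes apart. By direction, 19 genes passed as higher (26.0% of the 73, background 41.1%) and 49 as lower (67.1%, background 52.5%). The same backgrounds hold for the counts of each role group below. The median log2 fold change was −1.35, against −1.04 over all listed genes, and the values ran from −4.90 for the FMN reductase ANIA_07214 to 3.45 for the nitrate reductase ANIA_08449. Adjusted over all 10516 loci of the assembly rather than the listed genes, 32 of the 73 passed, 5 as higher and 27 as lower (38.1% of the listed genes, 12.5% as higher and 25.6% as lower). Loci that were not listed had no p-values and were counted as if theirs were above those of the listed genes. The strains did not overlap in RPKM for any of the 73 genes, 24 of which lay above and 49 below the control. The same holds for 100.0% of the listed genes (46.7% above, 53.3% below), so this is a property of the selection. The 5 genes that did not pass all had higher means in celAΔ and a high value in control replicate 3: ANIA_07590, ANIA_09002, ANIA_03305, ANIA_09401 and ANIA_08449.

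**Figure D1:**
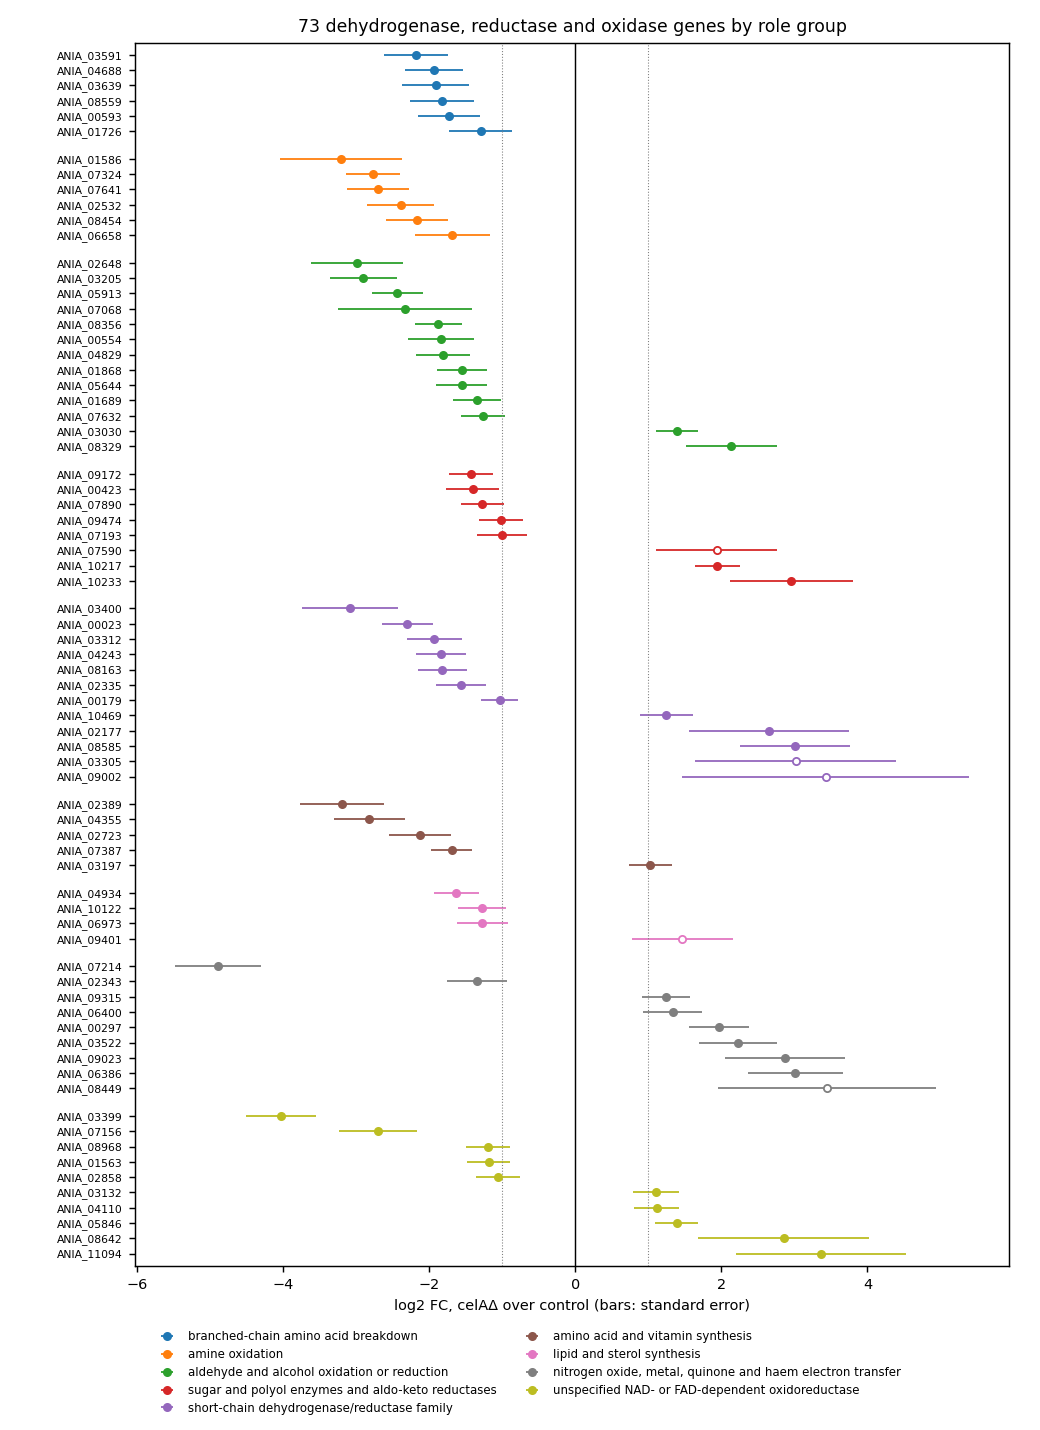
Log2 fold change (celAΔ over control, x axis) with its SE for each of the 73 genes, arranged by role group, from the edgeR fit to 3 libraries a strain, with open circles for the 5 genes that did not pass and dotted lines at −1 and 1. The branched-chain amino acid breakdown and amine oxidation groups lie wholly to the left of 0, and the group of nitrogen oxide, metal, quinone and haem enzymes lies mostly to the right, with ANIA_07214 at −4.90 as its exception.

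The enzymes of branched-chain amino acid breakdown were lower together. All 6 passed the test as lower (background 52.5%), with a median log2 fold change of −1.87. Their summed level was 1673, 1544 and 786 RPKM in the control, against 288, 512 and 461 RPKM in celAΔ. The pathway takes the 2-oxo acids of valine, leucine and isoleucine, oxidises them in a multi-enzyme complex, and dehydrogenates the resulting thioesters in the mitochondrion. The annotation of the 2-oxo acid dehydrogenase subunits below does not name the substrate. The E1 alpha subunit (ANIA_01726), which decarboxylates the substrate, had 605, 512 and 292 RPKM in the control, against 124, 248 and 203 RPKM in celAΔ. The libraries of the strains did not overlap, but control replicate 3 was close to the highest celAΔ library, and the change was the smallest of the group (log2 fold change −1.29 ± 0.43, edgeR, Benjamini-Hochberg adjusted p = 0.0228). Its call was lost when any of 4 libraries was left out, at an adjusted p of 0.0795 without control replicate 1, 0.0624 without control replicate 2, 0.0653 without celAΔ replicate 1 and 0.0628 without celAΔ replicate 3. The E1 beta subunit (ANIA_08559) had 210, 199 and 111 RPKM in the control, against 26.9, 60.9 and 59.0 RPKM in celAΔ. The E2 component (ANIA_03639), the dihydrolipoyl acyltransferase of the complex, had 243, 236 and 121 RPKM in the control, against 30.0, 62.0 and 67.0 RPKM in celAΔ. For both subunits celAΔ replicate 1 was the lowest library and control replicate 3 lay between the other controls and celAΔ, and the means were 3.54-fold and 3.77-fold lower in celAΔ (adjusted p = 0.00848 and 0.00791, edgeR with Benjamini-Hochberg).

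The next steps behaved alike. Isovaleryl-coenzyme A dehydrogenase (ANIA_04688), which acts in leucine breakdown, had 155, 118 and 62.9 RPKM in the control, against 29.8, 32.6 and 25.1 RPKM in celAΔ, a 3.84-fold lower mean (log2 fold change −1.94 ± 0.40, edgeR, Benjamini-Hochberg adjusted p = 0.00507). 3-Hydroxyisobutyrate dehydrogenase (ANIA_00593), of valine breakdown, had 214, 218 and 93.7 RPKM against 40.0, 63.5 and 55.1 RPKM. Methylmalonate-semialdehyde dehydrogenase (ANIA_03591), the last oxidation of the valine branch, fell most within the group. Its level was 247, 261 and 105 RPKM in the control, against 36.8, 45.2 and 52.5 RPKM in celAΔ (log2 fold change −2.19 ± 0.44, edgeR, Benjamini-Hochberg adjusted p = 0.00471). In all 6 genes control replicate 3 was the lowest control library, and without it the median log2 fold change of the group was −2.12 and 6 of 6 passed. Only 2 of the 6 passed when adjusted over all loci. A further 3 listed genes placed in the pathway, which are no oxidoreductases, were also lower, and the table was not searched for all of its genes. The biotin subunit of 3-methylcrotonyl-CoA carboxylase (ANIA_04690, leucine) had 452, 413 and 203 RPKM in the control, against 140, 119 and 117 RPKM in celAΔ. Methylglutaconyl-CoA hydratase (ANIA_02896, leucine) had 163, 136 and 69.2 RPKM against 39.5, 37.5 and 33.9 RPKM. The branched-chain transaminase ANIA_05957, whose annotation does not say breakdown or synthesis, had 23.3, 28.0 and 30.0 RPKM against 6.81, 7.51 and 9.35 RPKM. It was the one of these genes in which control replicate 3 was not the lowest control. These 3 genes, 3 of 3, passed as lower with a median log2 fold change of −1.73.

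**Figure D2:**
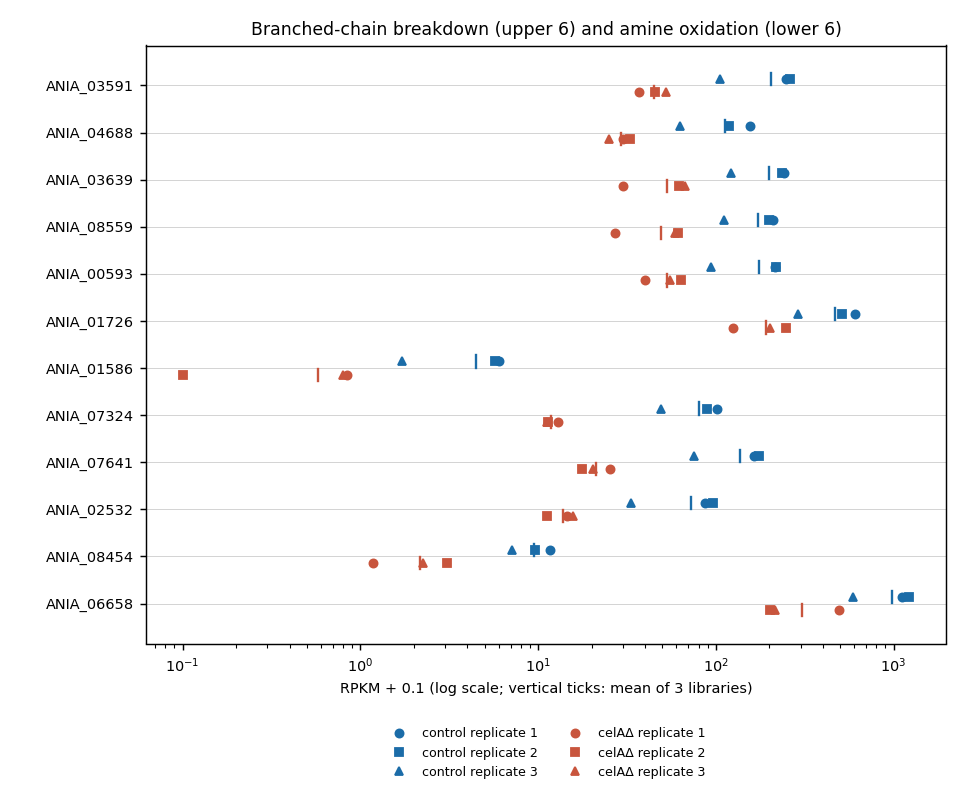
RPKM plus 0.1 on a log axis in each of the 6 libraries (points, by strain and replicate, with vertical ticks at the strain means) for the 6 enzymes of branched-chain amino acid breakdown and the 6 amine oxidising enzymes. Every celAΔ library lies below every control library for all of these genes. The strains do not overlap in 100.0% of the listed genes (53.3% below), so this is a property of the selection. In methylmalonate-semialdehyde dehydrogenase, for example, the lowest control library is at 105 RPKM and the highest celAΔ library at 52.5 RPKM.

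Amine oxidation had the lowest median of the 9 groups: 6 of 6 genes passed as lower (background 52.5%), with a median log2 fold change of −2.55. Summed levels were 1480, 1603 and 756 RPKM in the control, against 549, 244 and 265 RPKM in celAΔ. Copper amine oxidases turn primary amines into aldehydes, ammonium and hydrogen peroxide, and let Aspergillus use amines as a nitrogen source. The peroxisomal copper amine oxidase ANIA_07641 had 163, 174 and 75.0 RPKM in the control, against 25.4, 17.5 and 20.3 RPKM in celAΔ, a 6.52-fold lower mean (log2 fold change −2.70 ± 0.43, edgeR, Benjamini-Hochberg adjusted p = 0.00235). Copper amine oxidase 1 (ANIA_02532) had 86.5, 96.5 and 33.1 RPKM against 14.5, 11.1 and 15.6 RPKM. The third, ANIA_08454, was at a lower level, with 11.6, 9.54 and 7.07 RPKM against 1.08, 2.98 and 2.15 RPKM. In each of the copper enzymes the lowest control library was replicate 3, and the strains did not overlap, as in all listed genes. N,N-dimethylglycine oxidase (ANIA_07324), a flavoenzyme of choline and betaine breakdown, had 102, 89.0 and 48.8 RPKM in the control, against 12.8, 11.2 and 11.1 RPKM in celAΔ. The celAΔ libraries were almost equal here and the change was among the best resolved of the set (log2 fold change −2.77 ± 0.37, edgeR, Benjamini-Hochberg adjusted p = 0.00156). The amine oxidase ANIA_01586 was rare, with 5.93, 5.62 and 1.62 RPKM in the control, against 0.736, 0 and 0.701 RPKM in celAΔ, and its change had a wide error (log2 fold change −3.21 ± 0.83). The flavin containing polyamine oxidase ANIA_06658 was the most abundant of the group, with 1111, 1228 and 591 RPKM in the control, against 495, 201 and 215 RPKM in celAΔ. celAΔ replicate 1 reached close to control replicate 3 in this gene, and the call (log2 fold change −1.69 ± 0.51, edgeR, Benjamini-Hochberg adjusted p = 0.0167) was lost without control replicate 2 (adjusted p = 0.0537), celAΔ replicate 2 (0.0618) or celAΔ replicate 3 (0.0639). Without control replicate 3 all 6 genes passed, at a median of −2.87.

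Enzymes of aldehydes and alcohols formed the largest group, with 13 genes. 11 passed as lower and 2 as higher, at a median log2 fold change of −1.81, and the summed level was 2354, 2482 and 1089 RPKM in the control, against 583, 575 and 620 RPKM in celAΔ. The aldehyde dehydrogenase ANIA_00554 made up most of this sum and had the highest control level of the 73 genes, with a mean and SD over 3 libraries of 1557 ± 666 RPKM in the control, against 436 ± 20.4 RPKM in celAΔ (log2 fold change −1.84 ± 0.45, edgeR, Benjamini-Hochberg adjusted p = 0.00878). Aldehyde dehydrogenases oxidise aldehydes to acids, and 3 others, ANIA_03205, ANIA_05644 and ANIA_01689, were lower by −2.90, −1.56 and −1.34 on the log2 scale. ANIA_03205 was rare, with 3.42, 4.05 and 1.95 RPKM in the control, against 0.303, 0.540 and 0.337 RPKM in celAΔ. Isoamyl alcohol oxidase (ANIA_02648) had the largest change of the group, from 17.8, 21.2 and 7.82 RPKM to 1.01, 3.73 and 0.985 RPKM (log2 fold change −2.99 ± 0.63). A zinc-binding dehydrogenase family oxidoreductase (ANIA_05913) fell from 47.8, 44.8 and 29.9 RPKM to 5.31, 8.19 and 9.07 RPKM, and the strains were far apart relative to the spread within each (log2 fold change −2.44 ± 0.35, edgeR, Benjamini-Hochberg adjusted p = 0.00176). The alcohol dehydrogenase ANIA_08356, the aldehyde reductase ANIA_04829, the iron-containing alcohol dehydrogenase ANIA_01868 and formaldehyde dehydrogenase (ANIA_07632, which oxidises the formaldehyde adduct of a thiol) were lower by −1.88, −1.81, −1.56 and −1.27. The aryl-alcohol and vanillyl-alcohol oxidase ANIA_07068 was counted at only 4, 3 and 2 reads in the control, against 0, 0 and 2 reads in celAΔ. No celAΔ library exceeded the floor of 3 reads. The control mean was 1.31-fold above that floor, but control replicates 2 and 3 did not exceed it either, so this is not a firm bound. The call of ANIA_07068 was lost when control replicate 1 or 2 or celAΔ replicate 1 or 2 was left out.

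The exceptions of that group were both alcohol dehydrogenases. The zinc-binding enzyme ANIA_03030 rose from 6.96, 6.14 and 4.60 RPKM to 15.3, 16.8 and 14.6 RPKM, and control replicate 3 was its lowest control library, away from celAΔ (log2 fold change 1.40 ± 0.29, edgeR, Benjamini-Hochberg adjusted p = 0.00529). The aryl-alcohol dehydrogenase ANIA_08329 had 4, 0 and 2 reads in the control, against 12, 12 and 12 reads in celAΔ (log2 fold change 2.14 ± 0.62, adjusted p = 0.0146 by edgeR with Benjamini-Hochberg), a change that rests on few reads.

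Sugar and polyol enzymes and aldo-keto reductases moved in both directions. Of the 8 genes, 2 passed as higher, 5 as lower and 1 did not pass, with a median log2 fold change of −1.01. The summed level nevertheless was higher in celAΔ (1089, 1364 and 1411 RPKM) than in the control (427, 420 and 821 RPKM). Most of the sum in celAΔ came from the abundant NADP-dependent mannitol dehydrogenase (ANIA_07590). This enzyme interconverts fructose and mannitol, the storage polyol of hyphae and conidia. It had 69.4 and 60.1 RPKM in control replicates 1 and 2, 505 RPKM in control replicate 3, and 726, 829 and 872 RPKM in celAΔ. It did not pass the test (log2 fold change 1.94 ± 0.83, edgeR, Benjamini-Hochberg adjusted p = 0.054). Without control replicate 3, a library singled out in these same data, it did (3.64, adjusted p = 2.36e-06 by edgeR with Benjamini-Hochberg). When any other library was left out it did not pass, at adjusted p from 0.0993 to 0.118 in the same test. 6-Phosphogluconate dehydrogenase (ANIA_10233), of the oxidative pentose phosphate pathway, had the same outline at a lower level, with 5.61, 7.11 and 38.7 RPKM in the control, against 59.4, 173 and 168 RPKM in celAΔ (log2 fold change 2.96 ± 0.85, adjusted p = 0.0137 by edgeR with Benjamini-Hochberg, and 4.39 without control replicate 3). The aldo-keto reductase ANIA_10217 was higher without that outline: its control libraries lay close together at 61.6, 65.1 and 53.5 RPKM and celAΔ at 189, 247 and 258 RPKM (log2 fold change 1.95 ± 0.31, edgeR, Benjamini-Hochberg adjusted p = 0.00231).

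Both D-xylose reductases, which reduce xylose to xylitol, were lower. ANIA_00423 fell from 157, 152 and 79.7 RPKM to 40.2, 50.6 and 55.9 RPKM (log2 fold change −1.40 ± 0.36, edgeR, Benjamini-Hochberg adjusted p = 0.01). ANIA_07193 had 58.3, 58.2 and 93.0 RPKM in the control, against 42.9, 35.7 and 25.5 RPKM in celAΔ. Here control replicate 3 was the highest library, and without it the log2 fold change was −0.74 and no longer past the limit of 1, as was also the case without celAΔ replicate 3 (−0.83), and the call was lost without celAΔ replicate 2. UDP-glucose dehydrogenase (ANIA_09172), which makes UDP-glucuronic acid, and a homologue of a glucose oxidase precursor whose annotation warns of a sequencing error (ANIA_07890) were lower by −1.43 and −1.27. The aldo-keto reductase ANIA_09474 was at the limit, at −1.02, and its call held in only 2 of the 6 fits with a library left out, being lost without control replicate 1 or 2 or celAΔ replicate 2 or 3 (−1.01 to −0.89, edgeR, Benjamini-Hochberg adjusted p from 0.0503 to 0.0625).

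The short-chain dehydrogenase/reductase family, NAD(P)H enzymes of many substrates that are seldom known from sequence alone, was split: 3 of 12 genes passed as higher, 7 as lower and 2 did not pass (median log2 fold change −1.30). Of the lower genes, ANIA_03400 changed most, from 16.3, 9.14 and 7.23 RPKM to 0.591, 2.64 and 0.328 RPKM (log2 fold change −3.09 ± 0.66, edgeR, Benjamini-Hochberg adjusted p = 0.00567). The most abundant lower gene of the family was ANIA_03312, with 307, 270 and 135 RPKM in the control, against 61.5, 63.3 and 61.6 RPKM in celAΔ. ANIA_00023, ANIA_04243 (a 3-beta hydroxysteroid dehydrogenase/isomerase family protein), ANIA_08163, ANIA_02335 and ANIA_00179 ranged from −2.30 to −1.04, and ANIA_00179, at the upper end, lost its call without control replicate 2 (−0.95) or celAΔ replicate 2 (−0.995).

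The higher genes of this family were among those most altered by control replicate 3. ANIA_09002 had no read in control replicates 1 and 2, 332 reads in control replicate 3, and 764, 2285 and 1616 reads in celAΔ. It did not pass with all libraries (log2 fold change 3.43 ± 1.97, edgeR, Benjamini-Hochberg adjusted p = 0.124), and against the floor of 3 reads a library in control replicates 1 and 2 it was at least 384-fold higher. ANIA_03305 had 5, 3 and 192 reads in the control, against 359, 857 and 872 reads in celAΔ, and did not pass with all libraries either (3.02 ± 1.38, adjusted p = 0.0646 by edgeR with Benjamini-Hochberg). Its log2 fold change without control replicate 3 was 7.01. ANIA_02177 had 6.65, 8.37 and 118 RPKM in the control, against 396, 211 and 226 RPKM in celAΔ. It passed narrowly (2.65 ± 1.09, adjusted p = 0.0472 by edgeR with Benjamini-Hochberg), and it was lost when any library other than control replicate 3 was left out, at adjusted p from 0.071 to 0.129. In ANIA_08585 control replicate 3 was again the highest control: 3.23, 0 and 4.70 RPKM in the control, against 17.0, 24.2 and 24.1 RPKM in celAΔ (log2 fold change 3.00 ± 0.75, edgeR, Benjamini-Hochberg adjusted p = 0.0092). ANIA_10469 was higher by a smaller step, from 41.7, 39.6 and 81.9 RPKM to 130, 126 and 131 RPKM, and its call was lost without control replicate 1 (adjusted p = 0.0531) or 2 (0.0513).

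In amino acid and vitamin synthesis, 4 of 5 genes passed as lower and 1 as higher (median −2.13). Both pyrroline-5-carboxylate reductases, which carry out the last step of proline synthesis, were lower. ANIA_07387, the main form, had 78.2, 95.0 and 66.4 RPKM in the control, against 27.3, 21.9 and 24.7 RPKM in celAΔ, a 3.24-fold lower mean with a small error (log2 fold change −1.69 ± 0.29, edgeR, Benjamini-Hochberg adjusted p = 0.00281). ANIA_04355, the minor form, had 8.85, 13.5 and 6.75 RPKM against 1.60, 1.83 and 0.507 RPKM (−2.82 ± 0.49, adjusted p = 0.00292 by edgeR with Benjamini-Hochberg). Histidinol dehydrogenase (ANIA_02723), which forms histidine, had 7.99, 4.14 and 4.21 RPKM in the control, against 1.15, 1.60 and 0.909 RPKM in celAΔ. A protein of the ketopantoate reductase family (ANIA_02389), a family named for a step of pantothenate synthesis, fell from 22.3, 13.2 and 6.93 RPKM to 1.35, 2.40 and 0.748 RPKM. In all 4 lower genes each control library exceeded each celAΔ library, but the strains did not overlap in 100.0% of the listed genes. The dihydrofolate reductase family protein ANIA_03197 was the only higher gene, with 37.5, 33.5 and 33.3 RPKM against 52.8, 74.4 and 85.5 RPKM. At 1.03 ± 0.29 it stood just past the limit, and its value was under 1 without control replicate 3 (0.99), celAΔ replicate 2 (0.99) or celAΔ replicate 3 (0.87).

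Lipid and sterol synthesis held 4 genes, 3 of them lower. The C-4 methyl sterol oxidase Erg25 (ANIA_06973), which removes methyl groups from sterol precursors on the way to ergosterol, had 186, 195 and 187 RPKM in the control, against 113, 65.5 and 56.6 RPKM in celAΔ. The control libraries were nearly equal, replicate 3 included, and celAΔ replicate 1 was the closest to them (log2 fold change −1.27 ± 0.35, edgeR, Benjamini-Hochberg adjusted p = 0.0127). The call was lost without celAΔ replicate 2 (adjusted p = 0.0549) or 3 (0.0557). Other ergosterol genes looked at were sterol 24-C-methyltransferase (ANIA_07146), at 70.4 ± 9.31 RPKM (SD, n = 3) against 32.6 ± 4.20 RPKM in celAΔ, and squalene monooxygenase Erg1 (ANIA_11008), at 23.2 ± 6.15 and 10.1 ± 1.18 RPKM. Both passed as lower. The acyl carrier protein reductases, which reduce the growing fatty acyl chain, were lower as well: ANIA_04934 had 99.1, 68.1 and 65.8 RPKM against 28.3, 26.3 and 20.6 RPKM, and ANIA_10122 had 44.3, 50.1 and 27.5 RPKM against 14.0, 16.0 and 20.3 RPKM. The mitochondrial enoyl reductase ANIA_09401, of mitochondrial fatty acid synthesis, had 29.3 and 36.1 RPKM in control replicates 1 and 2, 174 RPKM in control replicate 3 and 200, 218 and 242 RPKM in celAΔ, and did not pass (log2 fold change 1.46 ± 0.69, edgeR, Benjamini-Hochberg adjusted p = 0.0723). Without control replicate 3 its value was 2.75.

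The enzymes of nitrogen oxides, metals, quinones and haem were the one group with a median above 1: 6 of 9 passed as higher, 2 as lower and 1 did not pass, at a median log2 fold change of 1.97. Their summed level was 121, 118 and 204 RPKM in the control, against 391, 465 and 464 RPKM in celAΔ. The nitrate reductase ANIA_08449, of an enzyme class that reduces nitrate to nitrite for assimilation, had no read in control replicates 1 and 2, 74 reads in control replicate 3, and 148, 553 and 365 reads in celAΔ, on medium with ammonium as its nitrogen source. It did not pass (log2 fold change 3.45 ± 1.49, edgeR, Benjamini-Hochberg adjusted p = 0.0553), and against the floor in control replicates 1 and 2 it was at least 87.5-fold higher. A formate/nitrate family transporter (ANIA_08647) had 2, 0 and 0 reads in the control, all under the floor, and 12, 26 and 12 reads in celAΔ. Nitric oxide oxidoreductase (ANIA_03522) rose from 4.0, 2.84 and 11.5 RPKM to 22.4, 30.3 and 33.8 RPKM (log2 fold change 2.23 ± 0.53, edgeR, Benjamini-Hochberg adjusted p = 0.0079). In contrast the nitroreductase family protein ANIA_02343 was lower by −1.35, with its call lost without control replicate 2 (−1.19) or celAΔ replicate 2 (−1.05).

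Of the metal reductases, which reduce ferric or cupric ions at the cell surface before uptake, the metalloreductase ANIA_09023 had 1.07, 3.42 and 12.7 RPKM in the control, against 66.8, 32.8 and 26.6 RPKM in celAΔ (log2 fold change 2.87 ± 0.83, edgeR, Benjamini-Hochberg adjusted p = 0.0141). The ferric-chelate reductase ANIA_06400 had 1.73, 2.64 and 3.95 RPKM against 4.65, 8.20 and 8.13 RPKM, and its call (log2 fold change 1.33) was lost without control replicate 1 or 2 or celAΔ replicate 2 or 3, at adjusted p from 0.0535 to 0.0581 (edgeR, Benjamini-Hochberg). The genes of iron and copper handling looked at that are no oxidoreductases went mostly the other way. The siderophore transporter Sit1 (ANIA_05378) went from a mean of 6.70 to 2.75 RPKM. Ferricrocin synthetase (ANIA_00607), which makes the intracellular siderophore, went from 4.60 to 0.536 RPKM, and the copper-activated transcription factor GRISEA (ANIA_00658) from 16.5 to 6.44 RPKM, all 3 passing as lower. A Ctr copper transporter (ANIA_03813) passed as higher, from 25.9 to 59.8 RPKM.

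The quinone and flavin reductases changed in opposite directions. The NADPH-dependent FMN reductase Lot6 (ANIA_07214), a quinone reductase in yeast, had 39.5, 41.1 and 37.4 RPKM in the control, against 0.310, 1.24 and 2.41 RPKM in celAΔ. The control libraries were level, replicate 3 included, and the mean was 29.8-fold lower in celAΔ, the largest fall among the 73 genes (log2 fold change −4.90 ± 0.59, edgeR, Benjamini-Hochberg adjusted p = 0.0013). Pst2 (ANIA_00297), another NADH-quinone oxidoreductase, rose from 63.2, 53.7 and 123 RPKM to 259, 339 and 340 RPKM (1.97 ± 0.41, adjusted p = 0.00519 by edgeR with Benjamini-Hochberg). The mitochondrial NADH-cytochrome b5 reductase ANIA_06386, which passes electrons from NADH to cytochrome b5, rose from 0.590, 3.31 and 0.606 RPKM to 13.7, 7.14 and 15.4 RPKM (3.01 ± 0.65, adjusted p = 0.00599 by edgeR with Benjamini-Hochberg), with control replicate 3 among its lowest libraries. An AMID-like mitochondrial oxidoreductase (ANIA_09315) was higher by 1.24.

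**Figure D3:**
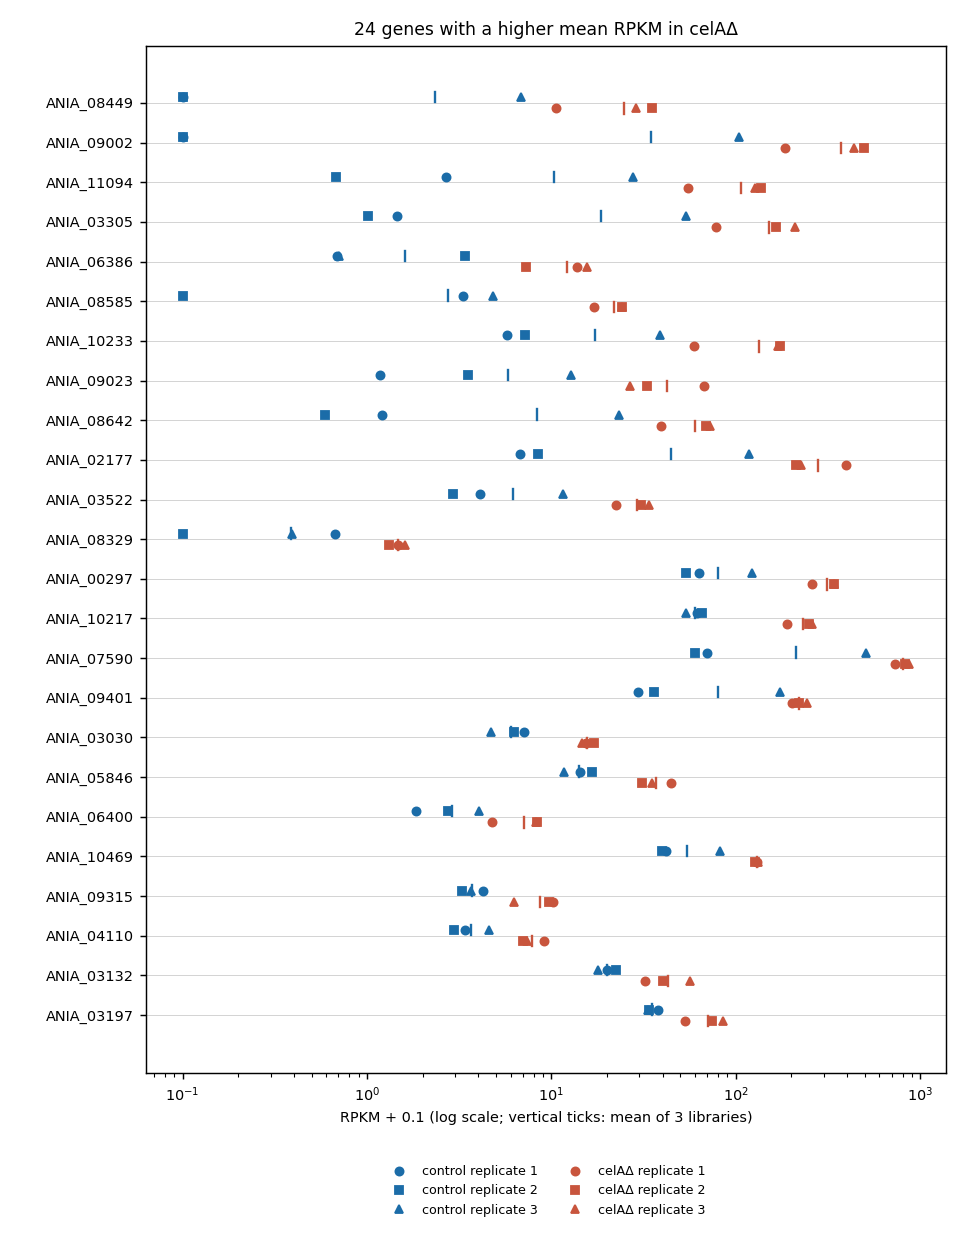
RPKM plus 0.1 on a log axis in each of the 6 libraries (points, by strain and replicate, with vertical ticks at the strain means) for the 24 genes with a higher mean in celAΔ. Control replicate 3 lies between the other controls and celAΔ, or near celAΔ, in ANIA_07590 (505 RPKM) and ANIA_03305 (53.4 RPKM), and with the other controls in ANIA_06386 (0.606 RPKM) and ANIA_10217 (53.5 RPKM).

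Oxidoreductases with no stated substrate were divided evenly, 5 of 10 higher and 5 lower, with a median log2 fold change of 0.02. The FAD binding oxidoreductase ANIA_03399 had 127, 123 and 49.0 RPKM in the control, against 4.67, 7.49 and 6.05 RPKM in celAΔ, a 16.4-fold lower mean and the largest fall but one (log2 fold change −4.03 ± 0.48, edgeR, Benjamini-Hochberg adjusted p = 0.0013). Its locus adjoins that of the short-chain dehydrogenase ANIA_03400, which fell by 3.09, on chromosome VI of the ASM1142v1 assembly. The nitrate reductase ANIA_08449 lay 6 loci from the celA locus, and the copper amine oxidase ANIA_08454 lay 6 loci further along chromosome V. Among the higher genes, ANIA_11094 had 10, 2 and 104 reads in the control, against 265, 745 and 553 reads in celAΔ (log2 fold change 3.36 ± 1.16, edgeR, Benjamini-Hochberg adjusted p = 0.0255), and without celAΔ replicate 2 or 3 its adjusted p was 0.0627 or 0.0573. ANIA_08642, with a Rossmann fold for NAD, had 5, 2 and 102 reads against 223, 437 and 368 reads (2.86 ± 1.17, adjusted p = 0.046 by edgeR with Benjamini-Hochberg), and was lost when any library other than control replicate 3 was left out, at adjusted p from 0.072 to 0.0947. The FAD binding oxidoreductase ANIA_05846 was higher with level controls, 14.3, 16.4 and 11.5 RPKM against 44.5, 31.0 and 34.9 RPKM (1.39 ± 0.30, adjusted p = 0.00578 by edgeR with Benjamini-Hochberg). ANIA_07156, ANIA_08968 (an isoflavone reductase family protein), ANIA_01563 and ANIA_02858 were lower by −2.70, −1.20, −1.19 and −1.06, and ANIA_04110 and ANIA_03132 higher by 1.12 and 1.10. Of these 6 genes, 4 lost their call when a library was left out: ANIA_08968 without control replicate 1 (−0.96), ANIA_03132 without celAΔ replicate 3 (0.86), ANIA_04110 without control replicate 1 or 2 or celAΔ replicate 1 (0.99 to 1.06), and ANIA_02858 without control replicate 3 or celAΔ replicate 1 or 3 (−1.06 to −0.89).

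Across the 73 genes, control replicate 3 was the control library nearest to celAΔ in 57 (78.1%), against 74.8% of all listed genes. Of the 24 genes with a higher mean in celAΔ, 10 had a level in control replicate 3 more than 5-fold above the mean of control replicates 1 and 2. Over all 73 genes the share more than 5-fold above was 13.7%, against 10.4% of the 1346 listed genes compared. Of the 10 genes, 5 passed with all libraries. The other 5 passed in none of the fits with a library left out, except without control replicate 3. That library was singled out in these same data. In the other direction, 12 of the 49 lower genes were more than 2-fold below in that library. Over all 73 genes this was 17.8%, against 15.3% of the listed genes compared. Without control replicate 3, 23 of the 73 genes passed as higher (31.5%, background 45.4%) and 47 as lower (64.4%, background 50.7%), at a median log2 fold change of −1.54, against −1.09 over all listed genes. The conidiation genes moved with the same library, and their part in these values was not tested. The branched-chain, amine and aldehyde groups were lower in celAΔ both with and without control replicate 3. Strains did not overlap in any gene, so no direction could change when this library was left out. In the branched-chain and amine groups it was the lowest control in every gene, so leaving it out could only widen the difference.

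The spread of the higher genes was accordingly wide in the control, with a median coefficient of variation of 95.0% over the 24 genes. Over all listed genes higher in celAΔ it was 59.8%. For the 49 lower genes it was 31.2%, against 28.2% over all listed lower genes. Of the 68 genes that passed, 50 (68.5% of the 73, background 62.6%) also passed in all 6 fits with a library left out, and of the 18 that did not, 8 were higher and 10 lower.

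**Figure D4:**
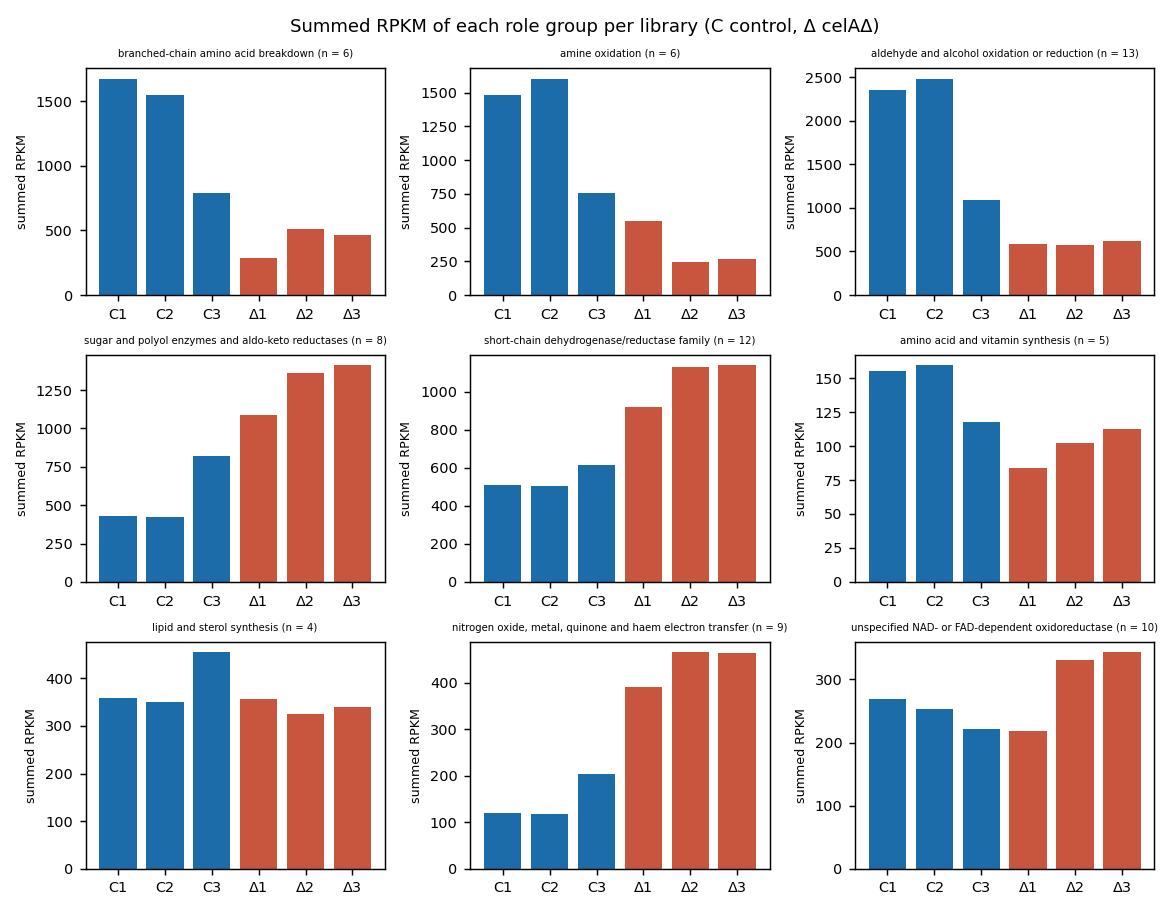
Summed RPKM of the genes of each role group in each of the 6 libraries (bars, C1 to C3 for the control and Δ1 to Δ3 for celAΔ, each panel with its own axis from 0). Amine oxidation runs from 756 to 1603 RPKM in the control, against 244 to 549 RPKM in celAΔ, while the sugar and polyol group runs from 420 to 821 RPKM in the control, against 1089 to 1411 RPKM in celAΔ.

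Summed over all 73 genes, the level was 7349, 7434 and 5068 RPKM in the control, against 4480, 5052 and 5155 RPKM in celAΔ, so that control replicate 3 lay below the highest celAΔ library and the sums overlapped. The aldehyde dehydrogenase ANIA_00554 and the polyamine oxidase ANIA_06658, both lower in celAΔ, had the highest control levels of the 73 genes.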

How the data were processed

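PolyA RNA of 3 control and 3 celAΔ cultures was sequenced as paired-end reads with a stranded kit. Per the study's methods, the authors trimmed and mapped the reads in CLC Genomics Workbench, with at most 3 hits a read, and compared strains on RPKM. The deposited table holds, for each of 1375 genes, unique gene read counts (whole numbers, not normalized) and RPKM values, both per library, and the authors' p-value and fold columns of their own comparison, which were read only to learn how genes were selected and are not reported.

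Mapped totals were derived from reads, length and RPKM and were used as library sizes (3300251 to 5205011). Counts were fitted with edgeR 4.0.16 (quasi-likelihood, prior count 0.125, no normalization factors, biological coefficient of variation 46.8%) in R 4.3.3, two-sided, with Benjamini-Hochberg adjustment over the listed genes and a threshold of adjusted p 0.05 and 1 on the log2 scale. The SE of a log2 fold change was derived as its absolute value divided by the square root of the F statistic of this test. RPKM values were used for levels, with means and SD over n = 3. An exact permutation test of 3 against 3 cannot go below p = 0.1 and was not used. Alternatives were limma 3.58.1 on log2(RPKM + 1) and log2(RPKM + 0.1), limma voom, DESeq2 1.42.0, TMM factors, scaling to the median gene, a mean of at least 1 RPKM, a replicate block, adjustment over all loci and leaving out each library. The fit was also run on simulated data in which most genes did not change and no control library stood apart. That run does not bear on the calls given here. Floors of 3 reads a library cover counting error only. All reads of the 73 genes were unique. Locus order came from RefSeq ASM1142v1, in which 73 of 73 loci were found.

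The genes, role groups and context lists were chosen from annotations with earlier results of these data known. Genes were named by a rule: all of groups of 6 or fewer, the 3 highest and 3 lowest of larger groups, and all that did not pass. The rule named 51 of the 73 genes, and the others were added after their values were seen.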

Additional observations from a re-analysis of the deposited data

How the results depend on the processing

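None of the 73 genes changed sign in the 15 alternatives, but this was largely set by the selection. Strains did not overlap in RPKM for any of these genes, so leaving out a library could not reverse a direction. The smallest change among them was −1.01 (ANIA_07193), larger than the scaling shifts given below. Of 764 values for the named genes, 663 kept their call, 71 fell below the threshold, 30 newly passed it and 0 reversed. DESeq2 gave 22 higher and 28 lower genes and centring on the median listed gene gave 21 and 28, against 19 and 49, so the share of higher calls was 44.0% and 42.9% against 27.9%, and among all listed genes 63.9% and 62.2% against 43.9%. These scalings moved the median log2 fold change of all listed genes by 0.68 and 0.63, and the median of the 73 genes to −0.67 and −0.72. Under both, the aldehyde and alcohol group had 8 calls, the sugar group 3, and the lipid and sterol group 1. Adjusted over all loci, 5 higher and 27 lower genes passed, of 524 listed genes, with 2 in branched-chain breakdown, 7 in the aldehyde and alcohol group, 2 in the sugar group, 6 in the short-chain family, 1 in lipid and sterol synthesis, 3 in the nitrogen oxide and metal group and 3 with no stated substrate. Leaving out 1 library gave 13 to 23 higher and 42 to 47 lower genes (992 to 1321 of all listed), and 6 to 9 genes with no stated substrate. The lowest value for these last came without celAΔ replicate 3.

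Same-numbered libraries did not pair: the correlations of their deviations were 0.138, −0.145 and 0.0843, and only control replicate 1 matched its own number best. With the replicate block 24 higher and 45 lower genes passed, of 1258 listed genes. Depth limits the genes of few reads, such as ANIA_07068 and ANIA_08329.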
